A study of Homo sapiens with 22 samples.

Results

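The 35 genes described here serve the unfolded protein response and the folding machinery of the endoplasmic reticulum (ER). They were picked by symbol from the 60664 genes in the count files, by a rule that uses no measured value. The list of symbols itself was chosen with earlier results of these data known. RNA sequencing counts were available for 22 libraries of IMR90, a line of human fetal lung fibroblasts, in 6 groups. Cells received either a non-targeting control siRNA or an siRNA pool against MSK2, a kinase downstream of growth factor signaling whose gene is RPS6KA4, at 10 nM over 72 h. All cells were serum starved for 24 h and then given PBS or 750 pM epidermal growth factor (EGF). There were 4 libraries of each siRNA after PBS, 4 of each after EGF for 30 min and 3 of each after 60 min. The labels give the PBS groups a time of 60 min. Only 1 pool was used against MSK2, so loss of MSK2 and other effects of that pool cannot be told apart. Nothing in the labels says whether replicates were separate cultures, so the p-values speak only of variation among the libraries at hand.

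Cells sense unfolded protein in the ER through 3 membrane proteins. IRE1 (ERN1) splices the mRNA of the transcription factor XBP1, PERK (EIF2AK3) slows translation and favors ATF4, and ATF6 is cut free in the Golgi to act as a transcription factor. Their shared output is a set of chaperones, oxidoreductases and degradation factors, led by BiP (HSPA5), which also holds the sensors inactive when little unfolded protein is present. Fibroblasts secrete large amounts of collagen and other matrix proteins, which pass through this machinery.

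Many of these genes are classical targets of ATF6 and XBP1, and the DNA letters those factors are known for can be read directly from their promoters. The ER stress response element was searched as CCAAT, 9 bases of any kind and CCACG, on both strands of the 250 bases before each RefSeq start (GRCh38.p14). A window was at hand for 31 of the 35 genes, and PDIA3, DERL1, DERL3 and SEC24D had none. The element was present before a RefSeq start of 8 of these 31 genes (HSPA5, HSP90B1, CALR, CANX, XBP1, CRELD2, PDIA6 and ERO1B). Over all genes it was present for 25 of 27305 symbols (0.0916%), these 8 included, and in 26 of 35116 windows (0.0740%). The sites of 7 of the 8 genes are shown because these genes were tested and their values follow (ERO1B was not tested). The fixed letters of the element are in capitals, and each site is read 5′ to 3′ on the strand that matches.
HSPA5, chr9:125241391-125241409: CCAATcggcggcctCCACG
HSP90B1 site 1, chr12:103930216-103930234: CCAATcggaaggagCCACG
HSP90B1 site 2, chr12:103930321-103930339: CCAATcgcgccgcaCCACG
CALR, chr19:12938384-12938402: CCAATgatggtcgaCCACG
CANX, chr5:179698778-179698796: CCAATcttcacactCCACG
XBP1, chr22:28800603-28800621: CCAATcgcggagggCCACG
CRELD2, chr22:49918554-49918572: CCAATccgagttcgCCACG
PDIA6, chr2:10812853-10812871: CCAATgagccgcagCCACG

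The second form of the element, ATTGG, 1 base of any kind and CCACG, occurred before 3 genes (HYOU1, SDF2L1 and HERPUD1). Over all genes it occurred for 18 of 27305 symbols (0.0659%) and in 18 of the 35116 windows (0.0513%). Both forms share the letters CCACG.
HYOU1 site 1, chr11:119057274-119057284: ATTGGaCCACG
SDF2L1, chr22:21642114-21642124: ATTGGtCCACG
HERPUD1, chr16:56932025-56932035: ATTGGgCCACG
A match describes these letters only and shows no binding. The members were listed for this response, whose factors the element is known for, so their share beside all genes is not a test. By the gene spans of GENCODE v44, the HSP90B1, CANX, CRELD2 and PDIA6 sites lie inside the gene, not before it. HYOU1 held a second copy of the same letters. The HSPA5 promoter is printed further because this gene had the smallest adjusted p of the 32 tested members in each MSK2 siRNA comparison. Its 211 bases before the start (GRCh38.p14, chr9:125241383-125241593, minus strand), with the element in capitals, read
HSPA5 upstream: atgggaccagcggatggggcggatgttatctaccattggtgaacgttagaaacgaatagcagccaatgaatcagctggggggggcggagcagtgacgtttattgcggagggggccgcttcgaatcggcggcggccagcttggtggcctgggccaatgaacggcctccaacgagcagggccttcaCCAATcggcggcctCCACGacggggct
and end at the base before the annotated start of HSPA5, which spans chr9:125234853-125241382 on the minus strand.

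Libraries held 7893209 to 22244216 counts on genes (median 15037489.5). RPS6KA4, the target of the siRNA, measured 11.1 to 25.4 CPM (counts on the gene scaled to a library of fixed size) in control siRNA libraries after PBS and 1.74 to 3.77 with MSK2 siRNA, 16.1 to 22.7 against 2.06 to 2.91 at 30 min of EGF, and 18.2 to 26.9 against 2.15 to 3.65 at 60 min. No library went against its siRNA label. All 10 fibroblast markers were measured, 1 of 6 epithelial, 1 of 5 endothelial and 0 of 5 leukocyte markers passed the filter on low counts, and the leukocyte sum stayed at or below 1.77 CPM. Summed fibroblast markers ranged from 46036 to 63740 CPM in control siRNA libraries and from 62678 to 75584 CPM with MSK2 siRNA. The endothelial sum was 51.7 to 65.2 CPM against 16.3 to 27.6 CPM and was carried by 1 gene, TEK (11.1 to 61.1 CPM over all libraries), while PECAM1, CDH5, VWF and KDR stayed at or below 5.30 CPM. Mitochondrial transcripts took 1.45 to 1.95% of counts after PBS with control siRNA and 2.04 to 2.85% with MSK2 siRNA, 1.46 to 2.07% against 1.54 to 2.07% at 30 min, and 1.16 to 1.59% against 1.82 to 1.95% at 60 min. The fibroblast sum, the endothelial sum and, after PBS and at 60 min, the mitochondrial share moved with the siRNA. Fibroblast sums of the siRNAs overlapped narrowly after PBS, and the leukocyte and epithelial sums overlapped at every treatment. The part of these values in the results on MSK2 siRNA was not tested. Control PBS replicate 4 had the fewest counts and stood apart on the second principal component of the tested genes, so results after PBS are also given without it where a call changed.

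Of the 35 genes, 32 had more than 10 CPM in at least 2 libraries and were tested. ERO1B, the second ER oxidase, had 45 to 127 counts per library and at most 7.86 CPM, and was not measured well enough to test. FKBP2, a prolyl isomerase, had 0 to 11 counts, and DERL3, a retrotranslocation channel subunit, 0 to 2. In GENCODE v44, 71.0% of the FKBP2 exon bases and 77.0% of those of DERL3 are shared with another gene, which leaves the assignment of their reads uncertain. ERN1 passed the filter through only 2 libraries, with 34 to 180 counts over all 22.

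Levels of different genes were compared in TPM, a unit that divides by transcript length, in the 4 control siRNA libraries after PBS (mean ± SD). The disulfide isomerase P4HB was the most abundant member at 988 ± 122 TPM, followed by HSPA5 at 787 ± 64.6 and the translocon subunit SEC61B at 664 ± 68.4. PDIA6 (468 ± 39.5), CANX (439 ± 42.8), PDIA3 (406 ± 35.1) and HSP90B1 (403 ± 56.1) came next, each within the spread of its neighbor in this order. XBP1 (349.64 ± 17.4) and CALR (347 ± 26.4) also could not be ordered against each other. All 3 sensors were scarce. ATF6 stood at 23.9 ± 2.76 TPM, EIF2AK3 at 12.2 ± 0.869 and ERN1 at 1.91 ± 0.586, the lowest of the tested members. In GRCh38 (GENCODE v44) the other members that the results turn on span, as whole genes, MANF chr3:51385291-51389397, CALR chr19:12938578-12944489, PDIA3 chr15:43746394-43773279, PDIA4 chr7:149003062-149028662, SEL1L chr14:81471547-81533853, XBP1 chr22:28794555-28800597, DNAJB9 chr7:108569867-108574850 and EIF2AK3 chr2:88556741-88691518.

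To ask whether these genes differed after EGF, EGF libraries were compared with PBS libraries under control siRNA. The 30 and 60 min comparisons share these PBS libraries, which also enter the siRNA comparison after PBS. With either siRNA the PBS libraries are labelled 60 min, so the 30 min comparisons with PBS differ in time as well as in EGF. At 60 min, 2 of the 32 members were higher, the PERK sensor EIF2AK3 and the transcription factor XBP1, and none was lower, where 2.5% of all 9770 tested genes were higher. EIF2AK3 measured 23.8, 26.9, 23 and 26.3 CPM after PBS, 25, 32, 25.4 and 29.8 at 30 min and 36.2, 42.7 and 37.6 at 60 min. Every 60 min library lay above every PBS library, whereas the 30 min values overlapped those after PBS. The EIF2AK3 change at 60 min was 0.64 ± 0.12 on the log2 scale (SE, edgeR quasi-likelihood test, Benjamini-Hochberg adjusted p = 0.000716), or 55.3% higher. XBP1 measured 271, 277, 295 and 291 CPM after PBS, 314, 280.45, 305 and 306 at 30 min and 332, 336 and 362 at 60 min. Again no 60 min library overlapped the PBS libraries, with a log2 change of 0.28 ± 0.07 (edgeR adjusted p = 0.0176). The XBP1 call was lost without control PBS replicate 2 (edgeR adjusted p = 0.0615) or control 60 min replicate 3 (0.156), and when the fit held no other group (0.0665). Gene counts do not tell spliced from unspliced XBP1.

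**Figure D1:**
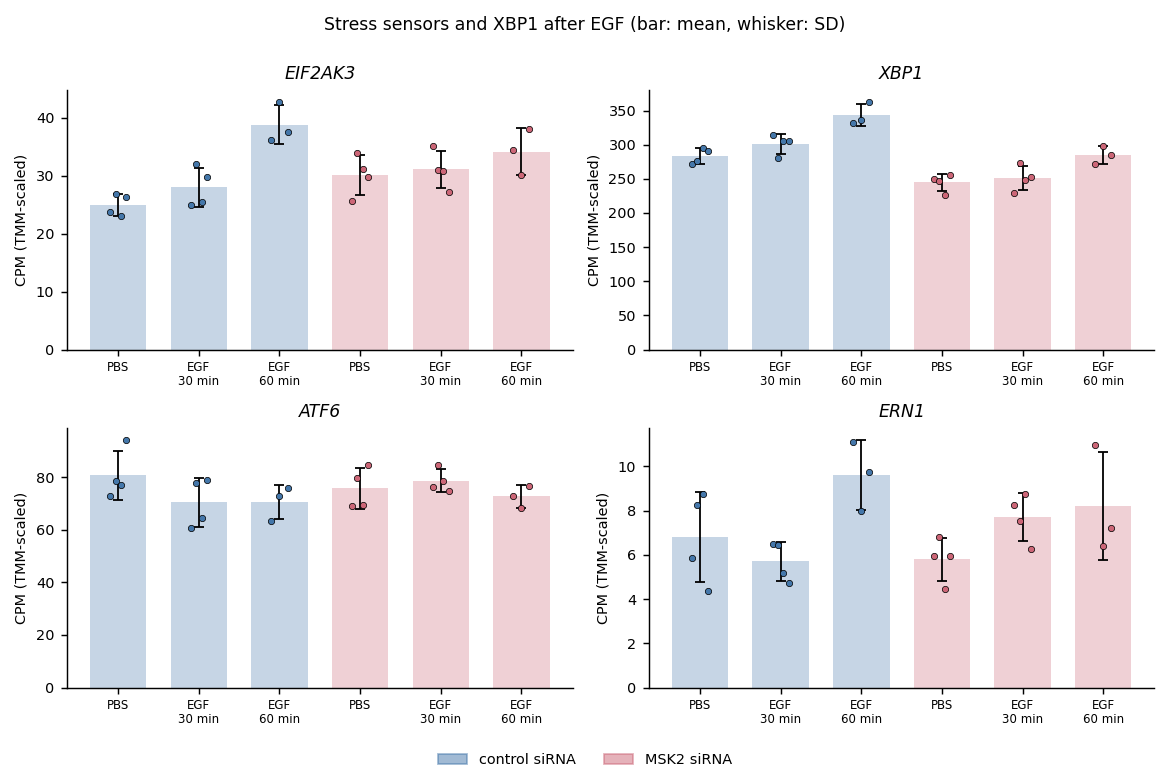
CPM of EIF2AK3, XBP1, ATF6 and ERN1 in each of the 22 libraries (points), with the group mean (bar) and SD (whisker), for control siRNA (blue) and MSK2 siRNA (red) after PBS, 30 min and 60 min of EGF. EIF2AK3 and XBP1 at 60 min lie above every PBS library with control siRNA, while the ATF6 and ERN1 values overlap.

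The other 2 sensors gave no call. ERN1 measured 5.85, 8.24, 8.76 and 4.38 CPM after PBS and 11.1, 7.99 and 9.76 at 60 min. Its log2 difference of 0.47 ± 0.21 is given without a test, since the 2 libraries through which ERN1 passed the filter were both 60 min EGF libraries, 1 of each siRNA. ATF6 differed by -0.19 ± 0.10 at 60 min (edgeR adjusted p = 0.536). BiP (HSPA5) differed by 0.04, with a 95% interval of -0.10 to 0.17, which bounds its change after 60 min of EGF. At 30 min of EGF, edgeR called 0 of 32 members, against 0.614% of all genes in either direction. DESeq2 also called 0, and at an unadjusted p under 0.05 edgeR gave 2 members lower and 0 higher (2.11% and 2.86% of all genes). The 30 min differences of the members ranged from -0.28 to 0.21 on the log2 scale.

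The same question was put to cells with MSK2 siRNA, where no member passed the threshold at either time. At 60 min, 0 of 32 members were called by edgeR, against 2.11% of all genes higher, with 2 higher (XBP1 and ERN1, the latter under the same limit) and 0 lower at an unadjusted p under 0.05 (5.89% and 2.69% of all genes). DESeq2 called 1 member higher, XBP1. XBP1 measured 249.50, 247, 227 and 256 CPM after PBS and 272, 299 and 285 at 60 min without overlap, a log2 difference of 0.22 ± 0.07 (edgeR adjusted p = 0.119). For EIF2AK3, the values were 25.6, 33.9, 31.2 and 29.7 CPM after PBS and 34.4, 30.1 and 38.1 at 60 min, which overlapped (0.18 ± 0.12, edgeR adjusted p = 0.785). At 30 min, 0 members were called by edgeR and 0 by DESeq2, against 0.778% of all genes, with 2 higher and 1 lower at an unadjusted p under 0.05, close to the 6.43% and 3.37% of all genes. SYVN1, the ubiquitin ligase HRD1, was called higher there when no filter on low counts was applied, and in no other alternative run.

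MSK2 siRNA libraries were compared with control siRNA libraries to ask whether these genes differed between them at each treatment. The 3 comparisons share no library, and in bulk libraries fewer expressing cells and less RNA per cell cannot be told apart. After PBS, 10 of the 32 members were lower and 2 were higher, against 12.6% of all tested genes lower and 12.2% higher. At 30 min of EGF the counts were 10 lower and 3 higher, against 15.2% and 14.9%. At 60 min they were 10 lower and 1 higher, against 10.1% and 9.37%. Without control PBS replicate 4, 8 members were lower and 1 was higher after PBS, and with replicates 1 to 3 of every group alone, 9 and 1. A fit of the PBS groups alone gave 6 lower and 1 higher, where the shares of all genes also dropped, to 9.52% and 9.0%. Leaving out MSK2 siRNA replicate 3 at 60 min gave 6 lower at that time. The median log2 difference over the 32 members was -0.14, -0.12 and -0.17, beside 0.00425, 0.00778 and 0.00868 over all tested genes. Lower in all 3 were HSPA5, MANF, CALR, PDIA3, PDIA4, SEL1L and XBP1 (7 of 32, against 7.06% of all genes). Of these, XBP1 and PDIA3 were not called after PBS by edgeR's exact test (adjusted p = 0.059 and 0.0845). They were also not called there without a filter on low counts or in a fit of the PBS groups alone. DNAJB9 alone was higher in all 3 (1 of 32, against 6.05%). Of the tested genes with either form of the element, HSPA5, CALR and XBP1 were lower in all 3 comparisons. HSP90B1 and HYOU1 were lower in part of them, and CANX, CRELD2, PDIA6, SDF2L1 and HERPUD1 were called in none. MANF, PDIA4 and SEL1L had a window without either form and were lower in all 3. A link between the element and the calls was not tested. In at least 1 comparison 13 members were lower and 4 were higher, and 15 were called in none, where 19.8%, 19.7% and 60.5% of all genes fell in these classes. The plot of all 32 members shows these differences with their intervals.

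**Figure D2:**
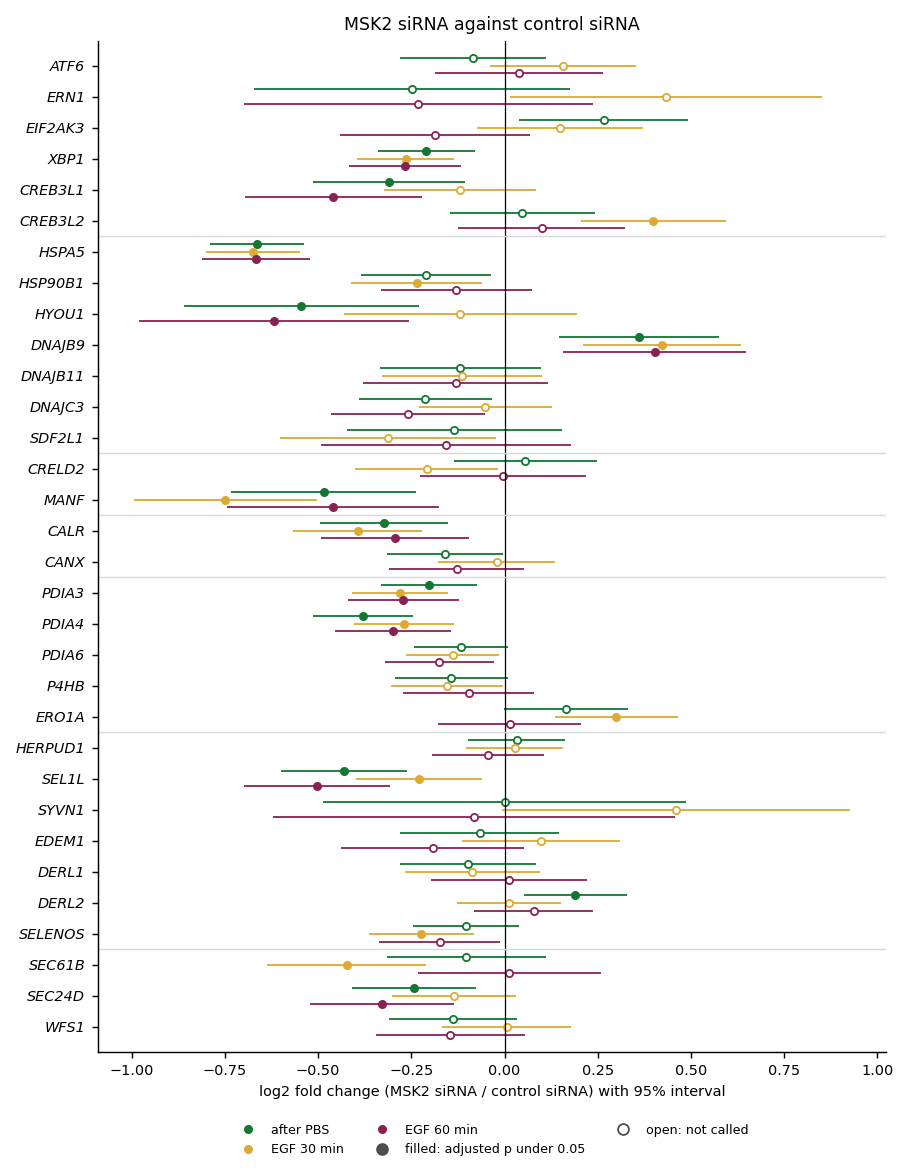
Log2 fold change of MSK2 siRNA against control siRNA (x axis) for the 32 tested members (y axis, by role) after PBS, at 30 min and at 60 min of EGF, with 95% intervals from the edgeR fit and filled points where the adjusted p was under 0.05. HSPA5 sits at -0.66, -0.67 and -0.67, and DNAJB9 stands on the other side of 0 at 0.36, 0.42 and 0.40.

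Among the HSP70 and HSP90 chaperones and their cofactors (7 tested), BiP had the largest log2 difference at each treatment. After PBS and at 60 min it could not be ordered against HYOU1, given below. HSPA5 measured 1373, 1349, 1301 and 1566 CPM in the control siRNA libraries after PBS, 1302, 1348, 1361 and 1418 at 30 min of EGF and 1453, 1441 and 1404 at 60 min. HSPA5 values with MSK2 siRNA were 842, 869, 855 and 959 CPM after PBS, 812, 876, 843 and 869 at 30 min and 913, 919 and 878 at 60 min. Every library with MSK2 siRNA lay below every library with control siRNA, whatever the treatment. For HSPA5, the log2 fold change under MSK2 siRNA was -0.66 ± 0.06 (SE) after PBS, -0.67 ± 0.06 at 30 min of EGF and -0.67 ± 0.07 at 60 min, which is 36.9%, 37.3% and 37% lower (edgeR adjusted p = 2.49e-09, 1.83e-09 and 5.4e-08). HSPA5 was called in all 3 comparisons under every alternative, left-out libraries included.

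**Figure D3:**
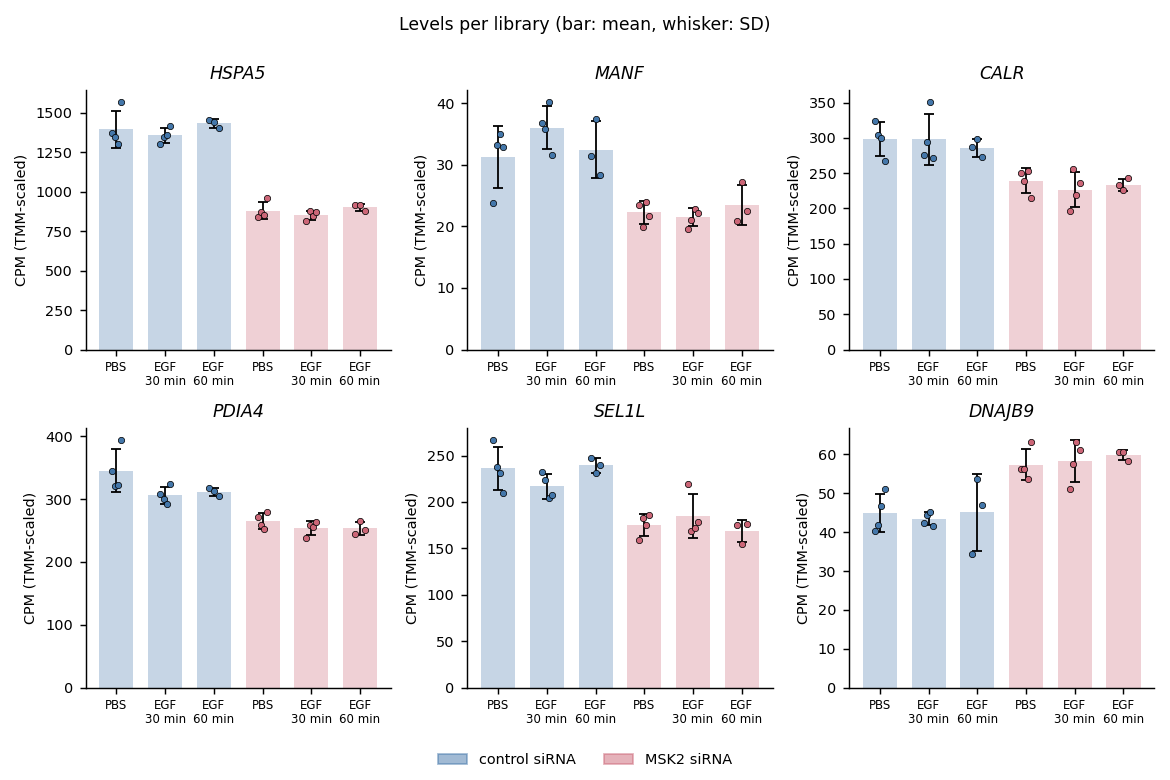
CPM of HSPA5, MANF, CALR, PDIA4, SEL1L and DNAJB9 in each library (points) with the group mean (bar) and SD (whisker), control siRNA in blue and MSK2 siRNA in red. HSPA5 with MSK2 siRNA lies between 812 and 959 CPM, below all control libraries (1301 to 1566 CPM), and DNAJB9 is the panel in which the MSK2 siRNA groups are higher.

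DNAJB9 (ERdj4) is a J-domain partner of BiP that helps return IRE1 to its inactive form. DNAJB9 measured 40.4, 41.7, 46.6 and 51.2 CPM in the control siRNA libraries after PBS, 42.5, 44.5, 45.1 and 41.5 at 30 min of EGF and 34.4, 53.8 and 47.1 at 60 min. DNAJB9 values with MSK2 siRNA were 56.4, 56.4, 53.6 and 63.1 CPM after PBS, 51, 57.5, 63.2 and 61.2 at 30 min and 60.6, 60.6 and 58.3 at 60 min. MSK2 siRNA libraries exceeded all control libraries at every treatment, and the direction was opposite to that of HSPA5. For DNAJB9, the log2 fold change under MSK2 siRNA was 0.36 ± 0.10 (SE) after PBS, 0.42 ± 0.10 at 30 min of EGF and 0.40 ± 0.12 at 60 min (edgeR adjusted p = 0.0109, 0.00268 and 0.0169). At 60 min the call was lost without control replicate 1 (edgeR adjusted p = 0.152), the lowest of its group, or MSK2 siRNA replicate 2 (0.0517).

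HYOU1, which recharges BiP with ATP, was called after PBS and at 60 min but not at 30 min. It measured 81.1, 101, 98.3 and 52.6 CPM with control siRNA after PBS and 60.1, 55.4, 69.7 and 45.3 CPM with MSK2 siRNA, and these groups overlapped. At 60 min the values were 95, 90.9 and 89 CPM against 67.7, 56.9 and 54.6 CPM, without overlap. The log2 differences were -0.55 ± 0.15 and -0.62 ± 0.18 (edgeR adjusted p = 0.00896 and 0.0131), and -0.12 ± 0.15 at 30 min (0.592). The HYOU1 call after PBS was lost without control replicate 2 (edgeR adjusted p = 0.0537), and that at 60 min without MSK2 siRNA replicate 2 or 3 (0.0532 and 0.066). HSP90B1, the ER form of HSP90 (GRP94), was called at 30 min only, at -0.24 ± 0.09 (edgeR adjusted p = 0.0372). That call was lost without control replicate 2, 3 or 4 or MSK2 siRNA replicate 1, 2 or 4 (highest edgeR adjusted p = 0.132, without control replicate 3). The HSP90B1 call was also lost with library sizes only, without a filter on low counts and with replicates 1 to 3 only. After PBS its difference was -0.21 ± 0.09 (edgeR adjusted p = 0.0734), and it was called with the replicate number as a block (-0.21) or without control replicate 1. DNAJB11, DNAJC3 and SDF2L1, further partners of BiP, passed in none of the 3 comparisons, with log2 differences between -0.31 and -0.05.

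MANF and CRELD2 are small proteins induced by ER stress and in part secreted. MANF measured 23.9, 33.2, 35 and 32.9 CPM in the control siRNA libraries after PBS, 36.7, 35.8, 40.1 and 31.6 at 30 min of EGF and 31.5, 37.5 and 28.3 at 60 min. MANF values with MSK2 siRNA were 23.4, 19.9, 24 and 21.7 CPM after PBS, 19.6, 21.1, 22.9 and 22.3 at 30 min and 20.9, 27.2 and 22.5 at 60 min. At both EGF times the groups were apart. After PBS 1 control library, replicate 1, fell inside the MSK2 siRNA range. For MANF, the log2 fold change under MSK2 siRNA was -0.48 ± 0.12 (SE) after PBS, -0.75 ± 0.12 at 30 min of EGF and -0.46 ± 0.14 at 60 min (edgeR adjusted p = 0.0034, 2.02e-05 and 0.018), the lowest value of any member at 30 min. The 60 min MANF call was lost without control replicate 2 (edgeR adjusted p = 0.142) or MSK2 siRNA replicate 1 or 3 (0.0947 and 0.0715). CRELD2 was called in no comparison, at 0.06, -0.21 and -0.0047.

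Calreticulin (CALR) and calnexin (CANX) hold newly made glycoproteins until they fold. CALR measured 324, 304, 299.59 and 267 CPM in the control siRNA libraries after PBS, 276, 294, 350.19 and 272 at 30 min of EGF and 288, 298 and 273 at 60 min. CALR values with MSK2 siRNA were 251, 238, 253 and 214 CPM after PBS, 197, 256, 219 and 236 at 30 min and 233, 226 and 243 at 60 min. No MSK2 siRNA library reached the lowest control library of its treatment. For CALR, the log2 fold change under MSK2 siRNA was -0.32 ± 0.08 (SE) after PBS, -0.39 ± 0.08 at 30 min of EGF and -0.29 ± 0.10 at 60 min (edgeR adjusted p = 0.00491, 0.000717 and 0.0326). The 60 min CALR call held in only 1 of 6 fits with a library left out, that without control replicate 3, and the edgeR adjusted p of the others ranged from 0.0536 to 0.123. CANX, its membrane-bound relative, measured 977 ± 94.9 CPM after PBS with control siRNA (SD, n = 4) and 874 ± 86 CPM with MSK2 siRNA, and was not called in any comparison (-0.16, -0.02 and -0.13). CALR shares 9.64% of its exon bases with an antisense gene in GENCODE v44, and the strand setting of the counting is not given in the sources used here. The same limit holds for HYOU1 (9.77%) and ERO1A (7.70%). HSP90B1, PDIA3, DERL2 and EIF2AK3 share smaller parts with genes on the opposite strand.

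Protein disulfide isomerases form and shuffle disulfide bonds, and PDIA3 and PDIA4 were lower in all 3 comparisons. PDIA4 measured 345, 321, 322 and 393 CPM in the control siRNA libraries after PBS, 307, 300.32, 292 and 324 at 30 min of EGF and 317, 313 and 305 at 60 min. PDIA4 values with MSK2 siRNA were 271, 258, 252 and 279.68 CPM after PBS, 237, 259, 255 and 263 at 30 min and 244, 265 and 251 at 60 min. The highest MSK2 siRNA library stayed below the lowest control library at every treatment. For PDIA4, the log2 fold change under MSK2 siRNA was -0.38 ± 0.07 (SE) after PBS, -0.27 ± 0.07 at 30 min of EGF and -0.30 ± 0.08 at 60 min (edgeR adjusted p = 6.21e-05, 0.00239 and 0.00509), and each call held with any library left out. PDIA3 works together with the lectin chaperones. It measured 601 to 731, 659 to 695 and 646 to 679.72 CPM with control siRNA after PBS, 30 min and 60 min, and 549.65 to 601, 507 to 593 and 534 to 579 CPM with MSK2 siRNA. The PDIA3 ranges touched after PBS only. For PDIA3, the log2 fold change under MSK2 siRNA was -0.20 ± 0.06 (SE) after PBS, -0.28 ± 0.06 at 30 min of EGF and -0.27 ± 0.07 at 60 min (edgeR adjusted p = 0.018, 0.00123 and 0.00806). Its call after PBS was lost without control replicate 4 (edgeR adjusted p = 0.0627) or MSK2 siRNA replicate 1 (0.059). That call was also lost with edgeR's exact test (adjusted p = 0.0845) and with replicates 1 to 3 only (edgeR adjusted p = 0.0982). The same held without a filter on low counts (0.0681) and in a fit of the PBS groups alone (0.0855).

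The most abundant isomerase, P4HB, which also serves as a subunit of the collagen prolyl hydroxylase, gave no call. Its log2 differences were -0.14 ± 0.07, -0.15 ± 0.07 and -0.10 ± 0.09 (edgeR adjusted p = 0.17, 0.116 and 0.482). PDIA6 was not called either, at -0.12, -0.14 and -0.17, and 25.2% of its exon bases overlap ATP6V1C2. ERO1A, the oxidase that recharges the isomerases, moved the other way at 30 min of EGF. It measured 67.4, 71.2, 64.4 and 67.6 CPM with control siRNA and 92, 86.5, 74.7 and 80.0 CPM with MSK2 siRNA, without overlap (0.30 ± 0.08, edgeR adjusted p = 0.00572). After PBS and at 60 min its differences were 0.17 and 0.01, neither called.

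Among the sensors and membrane-bound transcription factors, XBP1 was lower with MSK2 siRNA at each treatment. Control values of 271 to 295 CPM after PBS, 280.45 to 314 at 30 min and 332 to 362 at 60 min stood against 227 to 256, 229.71 to 273 and 272 to 299 CPM with MSK2 siRNA. These XBP1 groups were apart at every treatment. For XBP1, the log2 fold change under MSK2 siRNA was -0.21 ± 0.06 (SE) after PBS, -0.26 ± 0.06 at 30 min of EGF and -0.27 ± 0.07 at 60 min (edgeR adjusted p = 0.015, 0.00215 and 0.00932). Its call was lost after PBS without MSK2 siRNA replicate 3 (edgeR adjusted p = 0.067) and at 60 min without control replicate 3 (0.0605). After PBS the XBP1 call was also lost with edgeR's exact test (adjusted p = 0.059) and in a fit of the PBS groups alone (edgeR adjusted p = 0.0619). Without a filter on low counts it was lost after PBS and at 60 min (edgeR adjusted p = 0.0984 and 0.0634). EIF2AK3 was called in none, with log2 differences of 0.27 ± 0.11, 0.15 ± 0.11 and -0.19 ± 0.12 (edgeR adjusted p = 0.0804, 0.32 and 0.325). ATF6 (-0.08, 0.16 and 0.04) and ERN1 (-0.25, 0.43 and -0.23) were not called.

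CREB3L1 and CREB3L2 are relatives of ATF6, likewise released from the membrane, that act on secretory pathway and matrix genes. CREB3L1 measured 322, 306, 303 and 227 CPM with control siRNA after PBS and 252, 245, 233 and 205 CPM with MSK2 siRNA. At 60 min it measured 369, 321 and 285 CPM against 248, 239 and 221 CPM. The groups overlapped after PBS through control replicate 4 and were apart at 60 min. CREB3L1 differed by -0.31 ± 0.10 after PBS, -0.12 ± 0.10 at 30 min and -0.46 ± 0.12 at 60 min (edgeR adjusted p = 0.0223, 0.391 and 0.00476). The call after PBS was lost when control replicate 1, 2 or 3 or MSK2 siRNA replicate 4 was left out (highest edgeR adjusted p = 0.101). It was also lost in a fit of the PBS groups alone (edgeR adjusted p = 0.0514). CREB3L2 was higher at 30 min only, with 69.5, 78.4, 70.2 and 79.5 CPM against 113, 91.3, 95.1 and 93 CPM, without overlap (0.40 ± 0.09, edgeR adjusted p = 0.00191). After PBS and at 60 min it differed by 0.05 and 0.10.

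ER-associated degradation returns misfolded proteins to the cytosol for the proteasome, and of its 7 tested members SEL1L, the scaffold of the HRD1 ligase, was lower in all 3 comparisons. SEL1L measured 266, 237, 231 and 209 CPM in the control siRNA libraries after PBS, 232, 224, 204 and 207 at 30 min of EGF and 247, 231 and 240.10 at 60 min. SEL1L values with MSK2 siRNA were 159, 182, 175 and 186 CPM after PBS, 219, 169, 172 and 179 at 30 min and 175, 155 and 176 at 60 min. The groups were apart after PBS and at 60 min and overlapped at 30 min through MSK2 siRNA replicate 1. For SEL1L, the log2 fold change under MSK2 siRNA was -0.43 ± 0.08 (SE) after PBS, -0.23 ± 0.08 at 30 min of EGF and -0.50 ± 0.10 at 60 min (edgeR adjusted p = 0.000233, 0.0344 and 0.00029). The 30 min SEL1L call was lost without control replicate 1 or 2 or MSK2 siRNA replicate 2, 3 or 4 (highest edgeR adjusted p = 0.121). It was also lost with library sizes only and without a filter on low counts (edgeR adjusted p = 0.0579 and 0.126). The ligase itself, SYVN1, differed by 0.00069 ± 0.24, 0.46 ± 0.23 and -0.08 ± 0.26, none called by the quasi-likelihood test. HERPUD1, a cofactor of the ligase and an ATF4 and XBP1 target, measured 182 ± 10.8 CPM after PBS with control siRNA (SD, n = 4) and 186 ± 9.52 CPM with MSK2 siRNA. Its 95% intervals were -0.10 to 0.16, -0.10 to 0.16 and -0.20 to 0.11 on the log2 scale.

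SELENOS, which links the degradation ATPase to the membrane, was lower at 30 min only (-0.22 ± 0.07, edgeR adjusted p = 0.0147). The SELENOS call was lost without control replicate 2 or 3 or MSK2 siRNA replicate 1 (edgeR adjusted p = 0.05003, 0.0517 and 0.0673). It was also lost without a filter on low counts (edgeR adjusted p = 0.251). DERL2, a retrotranslocation factor, was higher after PBS (0.19 ± 0.07, edgeR adjusted p = 0.0392). With the replicate number as a block, it was not called (edgeR adjusted p = 0.0542), which left 1 member higher, DNAJB9. It was likewise lost without control replicate 1, 3 or 4 or MSK2 siRNA replicate 2 or 3 (highest edgeR adjusted p = 0.114). EDEM1 and DERL1 were called in none of the 3.

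The last members move proteins into and out of the ER or sit in its membrane. SEC61B, a subunit of the translocon, measured 177, 199.99, 210.46 and 160.07 CPM at 30 min with control siRNA and 119, 131, 159 and 148 CPM with MSK2 siRNA. These groups did not overlap (-0.42 ± 0.10, edgeR adjusted p = 0.00256), while the differences after PBS and at 60 min were -0.10 and 0.01 and were not called. SEC24D, the cargo adaptor of COPII vesicles, was lower after PBS (-0.24 ± 0.08, edgeR adjusted p = 0.0284) and at 60 min (-0.33 ± 0.09, 0.013). Its call after PBS was lost without control replicate 4 (edgeR adjusted p = 0.135) or MSK2 siRNA replicate 1 or 3 (0.0778 and 0.0876). That call was also lost with edgeR's exact test (adjusted p = 0.0625) and in a fit of the PBS groups alone (edgeR adjusted p = 0.0746). The 60 min call was lost without control replicate 3 or MSK2 siRNA replicate 2 or 3 (highest edgeR adjusted p = 0.0654). WFS1, an ER membrane protein linked to calcium balance, was called in none.

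Whether EGF changed the size of the siRNA effect was tested as the difference between the effect under EGF and that after PBS. At 30 min the time differed too, since the PBS libraries are labelled 60 min. By edgeR 0 members passed at 30 min and 0 at 60 min, as did 0.0% and 0.0% of all genes, and DESeq2 also gave 0 members. At an unadjusted p under 0.05, edgeR gave 2 members higher and 1 lower at 30 min (3.75% and 3.02% of all genes), and 0 higher and 1 lower at 60 min (1.07% and 1.14%). For HSPA5 the difference was -0.01 (95% interval -0.19 to 0.17) at 30 min and -0.0014 (-0.19 to 0.19) at 60 min. The siRNA effect on HYOU1 differed at 30 min by 0.43 ± 0.22 (95% interval -0.02 to 0.87, edgeR adjusted p = 0.714). That on SEC61B differed by -0.32 ± 0.15 (edgeR adjusted p = 0.713) and that on CREB3L2 by 0.35 ± 0.13 (0.713). For EIF2AK3 the difference at 60 min was -0.45 ± 0.17 (95% interval -0.80 to -0.11, unadjusted p = 0.0111, edgeR adjusted p = 0.9999). The calls made at 1 treatment only are not shown to be particular to it.

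The 35 genes together took 0.826 ± 0.0457% of all gene counts with control siRNA after PBS (SD, n = 4), 0.793 ± 0.0220% at 30 min (n = 4) and 0.817 ± 0.0185% at 60 min (n = 3). With MSK2 siRNA the shares were 0.702 ± 0.0187%, 0.691 ± 0.00659% and 0.692 ± 0.00768%. No MSK2 siRNA library reached the lowest control library. HSPA5 made up 16.0 to 17.7% of these counts in control siRNA libraries and 11.9 to 13.2% with MSK2 siRNA. Without HSPA5 the shares ranged over 0.671 to 0.741%, 0.637 to 0.674% and 0.657 to 0.693% with control siRNA and 0.594 to 0.6253%, 0.601 to 0.613% and 0.596 to 0.606% with MSK2 siRNA, so the groups stayed apart.

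**Figure D4:**
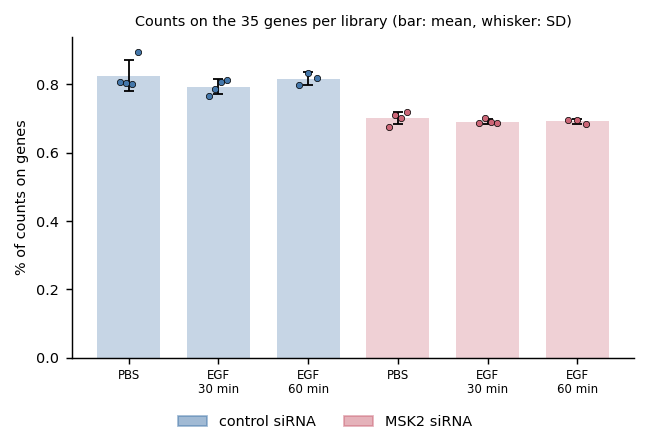
Percent of all counts on genes that fell on the 35 members, in each library (points) with the group mean (bar) and SD (whisker). The 11 MSK2 siRNA libraries sit between 0.676 and 0.720%, all below the 11 control siRNA libraries (0.765 to 0.895%).

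Other genes of the pathway were counted from 7 further lists, of which the 3 most abundant genes each are named. Their counts stand beside the shares of all tested genes given above, 12.6% lower and 12.2% higher after PBS, 15.2% and 14.9% at 30 min, and 10.1% and 9.37% at 60 min. Of 15 tested genes of the PERK and ATF4 branch, 10 were lower (66.7%) and 1 higher (6.67%) after PBS, 8 and 2 at 30 min of EGF, and 7 and 0 at 60 min, with medians of -0.40, -0.21 and -0.17 on the log2 scale. The serine synthesis enzymes PSAT1 and PHGDH fell by 0.66 and 0.58 after PBS (edgeR adjusted p = 6.52e-07 and 1.02e-06), while the amino acid transporter subunit SLC3A2 differed by -0.13 (0.166) and was called only at 30 min (-0.17, edgeR adjusted p = 0.0457). In the same list, 4 genes were higher and 0 lower after 60 min of EGF with control siRNA, where 2.5% of all genes were higher. The list's median log2 difference there was 0.20 and its highest 2.42. At 30 min with control siRNA 2 were higher, and with MSK2 siRNA 3 at 30 min and 5 at 60 min, with 0 lower in each. Of all genes, 0.614% and 0.778% were called in either direction at 30 min, and 2.11% were higher at 60 min with MSK2 siRNA. Of 10 factors that process ATF6 or resemble it, 1 was lower (10%) and 2 higher (20%) after PBS, 0 and 1 at 30 min, and 0 and 2 at 60 min. MBTPS1, the Golgi protease that cuts ATF6, differed by 0.04 after PBS (edgeR adjusted p = 0.713), NFE2L1 by -0.03 (0.888) and CREB3 by -0.13 (0.243), and none of these 3 was called at 30 or 60 min.

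**Figure D5:**
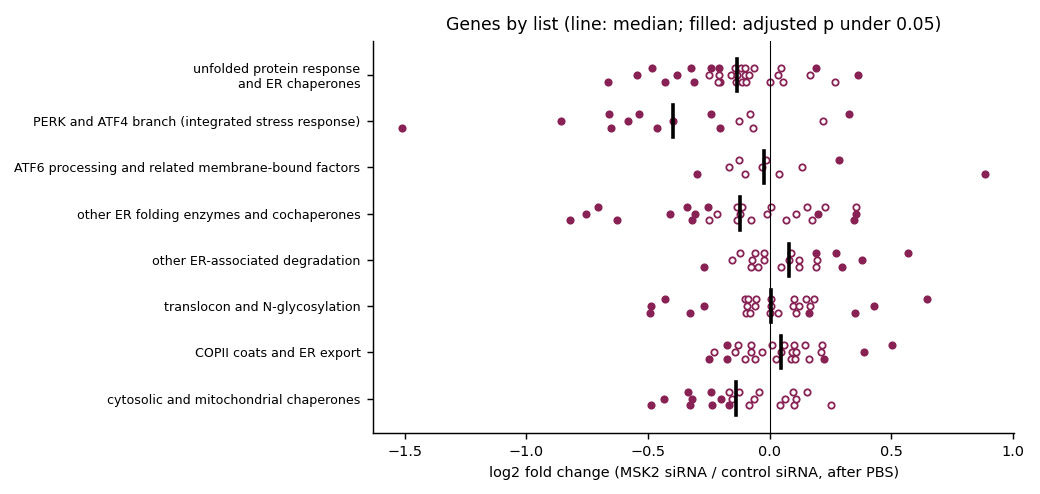
Log2 fold change of MSK2 siRNA against control siRNA after PBS for every tested gene (points) of the members and of the 7 further lists. The median of the 15 PERK and ATF4 branch genes was -0.40, that of the 32 members -0.14 and that of the 21 other degradation genes 0.08.

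Of 27 other ER folding enzymes and cochaperones, 9 were lower (33.3%) and 3 higher (11.1%) after PBS, 8 and 4 at 30 min, and 7 and 2 at 60 min. The collagen chaperone SERPINH1 fell by 0.71 after PBS, the sulfhydryl oxidase QSOX1 by 0.63 and the glucosidase II subunit GANAB by 0.76 (edgeR adjusted p = 3.8e-07, 1.3e-06 and 3.65e-10). At 60 min the 3 genes fell by 0.71, 0.72 and 0.80 (edgeR adjusted p = 4.83e-06, 2.21e-06 and 3.1e-09). Of 21 other degradation genes, 1 was lower (4.76%) and 5 higher (23.8%) after PBS, 1 and 5 at 30 min, and 2 and 4 at 60 min. In this list VCP, the ATPase that pulls substrates out of the membrane, differed by -0.08 after PBS (edgeR adjusted p = 0.375), the signal peptide peptidase HM13 was lower at -0.27 (0.00262) and the lectin OS9 higher at 0.19 (0.0271). HM13 was also lower at both EGF times, OS9 was higher at 30 but not called at 60 min (edgeR adjusted p = 0.00186 and 0.084), and VCP was called at neither.

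Of 27 translocon and N-glycosylation genes, 5 were lower (18.5%) and 4 higher (14.8%) after PBS, 7 and 1 at 30 min, and 4 and 3 at 60 min. SEC61A1, the channel of the translocon, was lower at -0.43 after PBS (edgeR adjusted p = 1.18e-06), and 2 subunits of the oligosaccharyltransferase stood at 0.16 (RPN2, 0.0421, higher) and 0.09 (DDOST, 0.302, not called). RPN2 was not called at 30 or 60 min (edgeR adjusted p = 0.253 and 0.132), nor was DDOST, whereas SEC61A1 was lower at both. Of 27 COPII and ER export genes, 3 were lower and 3 higher after PBS (11.1% each, near the shares of all genes), 2 and 8 at 30 min, and 1 and 3 at 60 min. KDELR2 and SEC31A were not called after PBS (-0.08 and -0.14) or at 30 or 60 min, and SURF4 was lower after PBS at -0.18 (edgeR adjusted p = 0.0309) but not called at 30 or 60 min (0.0829 and 0.235). Of 22 cytosolic and mitochondrial chaperones, which lie outside the ER, 9 were lower (40.9%) and 0 higher after PBS, 10 and 0 at 30 min, and 4 and 1 at 60 min. Mitochondrial HSPA9 fell by 0.49 after PBS and HSP90AB1 by 0.17 (edgeR adjusted p = 7.4e-07 and 0.0435), while HSPA8, the constitutive cytosolic HSP70, differed by 0.04 (0.71). HSPA9 was also lower at both EGF times, HSP90AB1 at 30 but not at 60 min (edgeR adjusted p = 0.0032 and 0.217), and HSPA8 was not called at either.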

How the data were processed

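RNA was extracted, converted to cDNA with SMART-Seq v4 and made into Nextera XT libraries. Per the labels and the paper's methods, the authors made reads of 35 bp with bcl2fastq 2.20.0.422, aligned them to hg38 with STAR 2.7.9a and obtained gene counts from HTSeq 0.13.5. The annotation release and the strand setting are not given in the sources used here, so genes that overlap or have near-identical copies are uncertain. The deposited values are raw counts, 1 file per library.

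From these counts, the 5 summary lines per file, which name no gene (18.3 to 22.4% of a library), were left out. Genes with CPM above 10 in at least 2 of 22 libraries (9770) were fitted in edgeR 4.0.16 (R 4.3.3) with TMM scaling and 1 mean for each of 6 groups. Quasi-likelihood p-values were adjusted over all tested genes by Benjamini-Hochberg and called under 0.05. Intervals are 95%. CPM are relative to counts on tested genes. TPM used the canonical transcript lengths of GENCODE v44 on GRCh38, and promoters came from RefSeq. The scripts were tested on simulated data. Members and gene lists were chosen with earlier results of these data known. All 35 members are accounted for, and of each other list the 3 genes with the highest mean CPM are named.

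Alternatives were edgeR's exact test, DESeq2 1.42.0 (its test, or its size factors only), library sizes only, filterByExpr, no filter, compared groups only, the replicate number as a block, each library left out and, chosen after seeing the data, replicates 1 to 3 only. No library pair of a group agreed within counting noise (chi-square per degree of freedom 5.05 to 31.8 over 30 pairs). Deviations of same-numbered PBS libraries of the 2 siRNAs correlated at 0.143 to 0.500 over 4 pairs. In no other comparison did every pair exceed 0.1. With MSK2 siRNA, EGF and PBS libraries of the same number correlated at -0.348 to -0.0701 at 30 min and -0.309 to -0.0910 at 60 min. Nothing in the labels says that the number pairs libraries, so the main fit used no pairing.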

Additional observations from a re-analysis of the deposited data

Results flagged for a closer look

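In groups of 4 libraries, a member's highest or lowest library was marked when its gap to the nearest other exceeded Dixon's 95% limit. This held in 8 of 128 groups of values, and chance marks about 1 in 20. In control siRNA libraries after PBS, replicate 4 measured 613 CPM of HSP90B1, above the 466 to 478 CPM of the others. The same library measured 89 CPM of DERL1, beside 71.2 to 73.2 CPM. Replicate 1 of that group was low in MANF, at 23.9 CPM beside 32.9 to 35 CPM. At 30 min of EGF with control siRNA, replicate 4 measured 695 CPM of PDIA3, above 659 to 665 CPM. In that group replicate 1 measured 130.03 CPM of WFS1, above 118 to 119 CPM. With MSK2 siRNA after PBS, replicate 1 was low in PDIA3, at 549.65 CPM beside 597 to 601 CPM. Replicate 4 of that group measured 81.9 CPM of DERL1, above 66.7 to 67.9 CPM. At 30 min of EGF with MSK2 siRNA, replicate 1 was low in PDIA6, at 377 CPM beside 430.06 to 436 CPM. DERL1, PDIA6 and WFS1 were called in no siRNA comparison.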

How the results depend on the processing

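Of 38 calls of members over all comparisons, 22 held under every alternative run and none changed sign. Of 250 results not called, 238 stayed so, and 92 had a sign that differed in some alternative. When the fit held no group but those compared, members higher after 60 min of EGF with control siRNA went from 2 to 1, and members lower with MSK2 siRNA after PBS from 10 to 6. With the exact test, XBP1, PDIA3 and SEC24D were not called lower after PBS. Members higher with MSK2 siRNA after PBS went from 2 to 1 with the exact test, filterByExpr, no filter, compared groups only, replicates 1 to 3 only and the replicate block. At 30 min those higher went from 3 to 5 with the exact test (ERN1 and SYVN1 added). With EGF under MSK2 siRNA, members higher went from 0 to 1 at 30 min without a filter (SYVN1) and from 0 to 1 at 60 min with DESeq2 (XBP1). The cause was not tested. With a library left out, the count ranged from 1 to 2 for members higher at 60 min of EGF under control siRNA and from 1 to 2 for those higher with MSK2 siRNA after PBS. It ranged from 6 to 9 for members lower at 60 min with MSK2 siRNA (6 without MSK2 siRNA replicate 3) and from 0 to 1 for those higher (0 without control replicate 1 or MSK2 siRNA replicate 2). The block gave 11 members lower with MSK2 siRNA at each treatment, beside 10, and apart from the higher count after PBS it changed no other count of members. The main fit paired no libraries, and nothing in the labels says that the number pairs them. The exact test has no form for differences of effects, so it was not run there. Calls near the threshold rest on 3 or 4 libraries a group, and ERN1 and SYVN1 had at most 180 and 401 counts in a library.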
